A study of Homo sapiens with 3 samples.

Results

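Transient receptor potential (TRP) channels are cation channels of the plasma membrane and of intracellular membranes, and 10 of their genes, TRPV1, TRPV2, TRPV4, TRPM1, TRPM2, TRPM4, TRPM7, TRPM8, TRPC1 and PKD2, are described here in SK-Mel-28 melanoma cells. Every probe set that the platform annotation assigns to these genes was taken. That gave 19 probe sets with 1 gene each, for 8 of the 10 genes, out of 54613 probe sets and 19775 genes in all. A further 2 probe sets carry the name of TRPV1 together with that of SHPK, so that their signal belongs to neither alone and no value of TRPV1 is given. PKD2, the gene of the ciliary channel polycystin-2, was not analysed here. The genes were chosen by their family and by the differences between siRNA and scrambled cells, above all those of TRPV4 and TRPM1, so the values of the 10 genes are a description and carry no test.

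SK-Mel-28 is an established line of human melanoma cells, and its total RNA was hybridised to 3 Affymetrix U133 Plus 2.0 arrays, which give 1 signal per probe set. On 2 arrays the cells were stably transfected with a hairpin vector whose siRNA targets melanotransferrin (MTf, gene symbol MELTF), a transferrin homologue on the cell surface. On 1 array they carried a scrambled hairpin in the same vector, pSilencer 3.1-H1 neo. The siRNA arrays are labelled B1 and B2 with no word on whether these are clones or cultures, and they are numbered 1 and 2 here, so a p-value measures only the spread between 2 arrays, which may be technical. The scrambled array has no replicate and serves every difference given here.

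The brightest MELTF probe set read 18968 and 18974 on the siRNA arrays, against 32608 on the scrambled array, and the next brightest 10567 and 11199, against 8284. Dimmer ones read 693.7 and 665.7, against 546.4, and 699.7 and 283.6, against 915.2. In this order the log2 differences were -0.78, 0.39, 0.29 and -0.95 (limma adjusted p = 0.0699, 0.318, 0.640 and 0.326). The MELTF probe sets thus differed in sign, and none was called. Over all probe sets past the filter the median log2 difference was 0.11, and centring each array on its median lowered every difference by 0.17. Ribosomal RNA control probe sets were 4.01 times as bright on siRNA array 1 as on the scrambled array, and 0.963 times as bright on siRNA array 2. Their part in the results was not tested. Of 8 melanocyte markers, 7 were measured, with signals of 5022 (TYRP1, siRNA array 1) to 69169 (MLANA, siRNA array 2). Of the epithelial markers 3 of 7 (EPCAM, KRT14 and CDH1), of the leukocyte markers 1 of 4 measured (PTPRC) and of the endothelial markers 2 of 5 (CDH5 and TEK) lay below the brightest bacterial control signal on every array. The summed signal of the epithelial list was 13071 and 11342 on the siRNA arrays, against 16765 on the scrambled array, mostly from KRT10 (10167 and 8567, against 14775) and KRT18 (2483 and 2149, against 1308). The leukocyte list summed to 883.9 and 766.3, against 1657, with LCP1 at 477.8 and 384.7, against 1130, and the endothelial list to 428.0 and 730.0, against 516.8. Limma called 0 genes of these 3 lists. The 8 fibroblast markers had a summed signal of 5762 and 6209 on the siRNA arrays, against 2018 on the scrambled array, with LUM at 4850 and 4841, against 598.6. LUM was called higher (limma adjusted p = 0.00719), as the 1 gene of this list that was called. Without LUM the other 7 summed to 912.1 and 1368, against 1420. COL1A1 read 487.9 and 565.1, against 671.9, and DCN read 139.9 and 301.3, against 256.0, while COL3A1 and PDGFRB lay below the bacterial control signal on every array. In such bulk RNA, fewer cells of a kind and less RNA per cell cannot be told apart.

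TRP channels open to temperature, osmotic and mechanical load, lipids, redox signals or calcium store depletion, and most let calcium into the cytosol. TRPM1, also called melastatin, was named from melanoma, where its transcript is known to be lower in metastatic than in benign lesions. It is transcribed in pigment cells under the melanocyte transcription factor MITF, and an intron of the gene holds the microRNA gene MIR211. The related TRPM3 gene holds MIR204 in the same way.

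The TRPM1 promoter windows are shown because its 3 bright probe sets went the same way, and the intronic microRNA because it lies in the same transcription unit. RefSeq sequences of build GRCh38.p14 were used, each window running from 250 bases before to 50 bases after an annotated transcript start. Of the 10 genes 8 had a window, and TRPV4 and TRPV2 had none. Capitals mark CATGTG, a core of the E-box that MITF-family factors are known to bind, or CACATG, the same core on the other strand. The palindrome CACGTG was searched too and was in neither window. The upstream TRPM1 window is chr15:31161111-31161410 on the minus strand, with CACATG starting 8 bases before the transcript start, and the downstream one is chr15:31101676-31101975 on the minus strand, with CACATG starting 56 bases before it.
TRPM1 upstream: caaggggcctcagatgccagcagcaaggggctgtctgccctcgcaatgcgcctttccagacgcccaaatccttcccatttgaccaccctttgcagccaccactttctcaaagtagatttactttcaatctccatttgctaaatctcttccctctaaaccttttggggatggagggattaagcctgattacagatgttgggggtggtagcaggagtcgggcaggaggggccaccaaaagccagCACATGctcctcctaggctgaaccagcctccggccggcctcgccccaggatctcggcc
TRPM1 downstream: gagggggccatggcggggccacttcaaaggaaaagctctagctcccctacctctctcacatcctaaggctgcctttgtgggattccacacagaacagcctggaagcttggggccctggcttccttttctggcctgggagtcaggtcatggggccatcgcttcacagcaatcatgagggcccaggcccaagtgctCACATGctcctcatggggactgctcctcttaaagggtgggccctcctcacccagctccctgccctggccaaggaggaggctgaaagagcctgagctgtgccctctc
Each window held 1 match, and 11.1% of all 35116 windows hold CATGTG on either strand (7.256% hold CACGTG). The matches are letters, and binding was not measured. The mature microRNAs are given 5′ to 3′ with their seed, bases 2 to 8, in capitals. They are hsa-miR-211-5p, on the minus strand at chr15:31065095-31065116 within TRPM1, and hsa-miR-204-5p, on the minus strand at chr9:70810031-70810052 within TRPM3.
hsa-miR-211-5p: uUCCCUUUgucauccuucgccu
hsa-miR-204-5p: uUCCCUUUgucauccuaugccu
They share the seed UCCCUUU and are identical at 20 of 22 positions. Their levels were not measured by the arrays used here.

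With a pseudocount of 47.4 added to each signal, TRPV4 and TRPM1 were the channels higher on both siRNA arrays by more than 2-fold. No channel of the 8 measured was lower by as much. Differences are given as log2(signal + 47.4), a pseudocount that understates the change of dim probe sets. Of the 19 probe sets, 13 were higher on both siRNA arrays, 0 were lower on both and 6 went opposite ways. Among those past the filter it was 11 of 15, where 46.4% of all probe sets past it were higher on both. With arrays centred on their medians, 10 of the 19 were higher on both and 4 lower on both. Past the filter it was then 9 and 3 of 15, where 33.7% of all probe sets past it were higher on both and 42.4% lower on both. Small differences among the TRP probe sets thus depend on the scaling. At least 2-fold higher on both siRNA arrays were 4 probe sets, 1 of TRPV4 and 3 of TRPM1, and 0 were at least 2-fold lower. All 4 were among the 15 member probe sets, of 7 genes, that passed the filter on low signals, where 3.93% of all 27306 probe sets were that much higher and 1.83% that much lower. Over all probe sets limma called 2.09% at an adjusted p of 0.05, or 1.19% higher and 0.905% lower. These shares stand for comparison only, since the genes were chosen on this contrast. TRPV4 passed the filter only through its siRNA signals.

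**Figure D1:**
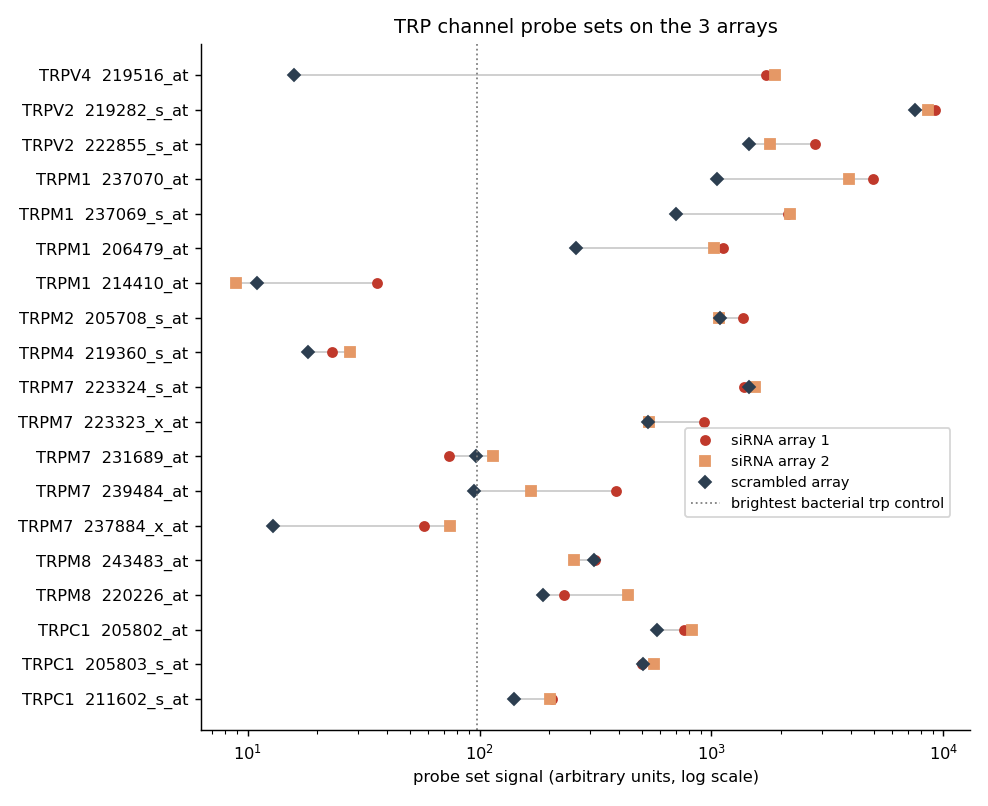
Signals of the 19 probe sets of the TRP channel genes (arbitrary units, log axis), with a circle for siRNA array 1, a square for siRNA array 2 and a diamond for the scrambled array. The dotted line is the brightest bacterial trp control signal, 97.2. TRPV4 lies at 1717 and 1875 on the siRNA arrays and at 15.8 on the scrambled array, and the 3 bright TRPM1 probe sets lie apart from their scrambled values as well.

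TRPV4, a calcium-permeable channel opened by osmotic swelling, warmth and mechanical load, is represented by 1 probe set. It read 1717 and 1875 on the siRNA arrays, against 15.8 on the scrambled array. The scrambled signal falls in the range of control probe sets for a bacterial tryptophan gene (7.0 to 97.2), so the difference has only a lower limit. With each signal raised to at least 97.2, TRPV4 was at least 18.5-fold higher in the siRNA cells, and with the scrambled median of 160.6 as that level at least 11.2-fold. The siRNA arrays differed from each other by only 0.12 on the log2 scale, less than the median of 0.25 over all probe sets past the filter.

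TRPV2, a calcium-permeable channel of the same subfamily whose placement in the membrane responds to growth factors, had 2 probe sets. The brighter read 9236 and 8607 on the siRNA arrays, against 7555 on the scrambled array, with a log2 difference of 0.24 ± 0.20 (SE). The dimmer read 2793 and 1786, against 1448. Both were above their scrambled value on each siRNA array, but the siRNA arrays differed from each other by 0.63 in the dimmer one, a gap larger than that of 86.0% of all probe sets past the filter. With arrays centred the mean difference of the brighter one was 0.068, and with quantile normalization it was 0.33.

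TRPM1 had 3 bright probe sets and 1 dim one. The brightest read 4968 and 3933 on the siRNA arrays, against 1053 on the scrambled array, or 4.72 and 3.74 times the scrambled signal (log2 difference 2.02 ± 0.26, SE). The second read 2144 and 2178, against 699.6 (1.56 ± 0.25, SE). The third read 1126 and 1026, against 261.3 (1.86 ± 0.29, SE). In these 3 every siRNA signal lay above the scrambled one, and the siRNA arrays differed from each other by 0.33 on the log2 scale in the brightest and by less in the other two, the first gap being above the median of all probe sets past the filter. The differences stayed between 1.39 and 2.19 under every pseudocount and scaling tried and with either siRNA array alone. The fourth probe set read 36.2 and 8.9, against 11.0, below the brightest bacterial control on every array.

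The known regulator and the pigment enzymes beside TRPM1 went different ways. MITF read 42992 and 34223 on the siRNA arrays, against 52684 on the scrambled array (log2 difference -0.46 ± 0.19, SE; limma adjusted p = 0.236). Tyrosinase (TYR) read 35193 and 37555, against 19988 (limma adjusted p = 0.0529). TYRP1, another melanosomal enzyme, fell to 5022 and 12370 in siRNA cells, against 53204 in scrambled cells (limma adjusted p = 0.0374). SOX10, a lineage factor, read 13842 and 17248, against 15136.

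The other TRPM genes showed smaller or less even differences. TRPM2, a channel gated by ADP-ribose and sensitive to oxidative stress, read 1363 and 1072 on the siRNA arrays, against 1084 on the scrambled array. There siRNA array 1 was above the scrambled array and siRNA array 2 just below it. TRPM4, a calcium-activated channel for monovalent cations, read 23.2 and 27.6, against 18.3, which is below the bacterial control level on every array.

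TRPM7, a channel for magnesium and calcium that carries its own kinase domain, had 5 probe sets, and they disagreed. The brightest read 1380 and 1542 on the siRNA arrays, against 1446 on the scrambled array, a log2 difference of 0.013 ± 0.26 (SE). The next brightest, of a type that can bind several transcripts, read 927.3 and 535.7, against 534.6. Its excess was thus on siRNA array 1. A dimmer one read 387.1 and 166.8, against 94.4 (log2 difference 1.11 ± 0.54, SE). Its siRNA arrays were 1.02 apart on the log2 scale, and its scrambled signal lay below the brightest bacterial control. The remaining 2 were dim. The brighter of them read 73.6 and 114.5, against 96.2. The dimmer, also of the type that can bind several transcripts, read 57.6 and 74.4, against 12.9. It was thus at 4.47 and 5.77 times the scrambled signal (log2 difference 0.91 with the pseudocount). All 3 of its signals lay below the brightest bacterial control, so the size of this difference is not known.

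TRPM8, the receptor for cold and menthol, had 2 probe sets that did not move together. One read 230.9 and 438.3 on the siRNA arrays, against 187.1 on the scrambled array, and its siRNA arrays differed by 0.80 on the log2 scale. The other read 313.8 and 254.5, against 312.8.

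TRPC1, a channel linked to phospholipase C signalling and store-operated calcium entry, had 3 probe sets. The brightest read 758.6 and 823.8 on the siRNA arrays, against 579.5 on the scrambled array (log2 difference 0.42 ± 0.29, SE). The second read 502.9 and 566.5, against 505.2, and the third 205.9 and 201.2, against 140.7. The first and the third were higher on both siRNA arrays in every scaling tried, and the second changed sign with the scaling.

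**Figure D2:**
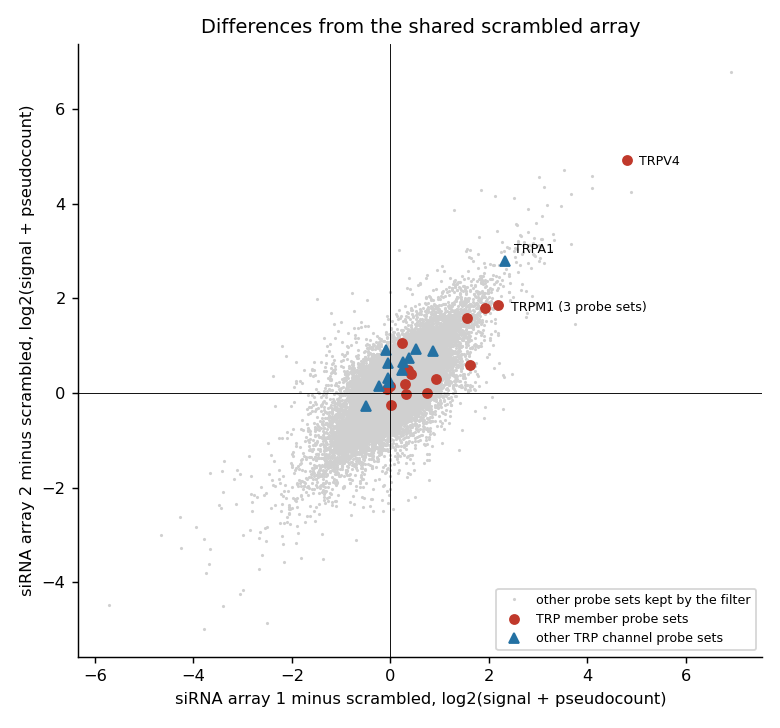
Log2 differences from the scrambled array on siRNA array 1 (horizontal axis) and siRNA array 2 (vertical axis) for all 27306 probe sets past the filter, with TRP member probe sets as circles and other TRP channels as triangles. TRPV4 lies near the upper right end, and TRPA1 and the 3 TRPM1 probe sets lie above 1 on both axes. A TRPM7 probe set lies at 1.62 and 0.60. Its mean of 1.11 is above the 95th percentile of all probe sets past the filter (1.06). The other channels lie among the bulk of probe sets. The shared scrambled array alone gives the axes a common part.

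The genes most like TRPV4 and TRPM1 were taken by Euclidean distance between their pairs of log2 differences, with signals raised to the bacterial level first, over 3 arrays and 12379 genes. The nearest to TRPV4 were NSG1 (1357 and 1906 on the siRNA arrays, against 34.5 on the scrambled array), ZNF468 and SERPINA3, at distances of 0.34, 0.62 and 0.92. The nearest to TRPM1 were the kinase gene LYN (553.9 and 421.0, against 117.8), VAMP8, a vesicle fusion gene (7417 and 5887, against 1627), and PAEP, a lipocalin gene (559.9 and 394.5, against 115.1), at distances of 0.064, 0.068 and 0.13.

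The nearest genes past the filter on the chromosome, 5 on each side in the RefSeq order, were compared after the values of TRPV4 and TRPM1 had been seen. Their counts above and below 0 are without centring, which lowers every difference by 0.17 and leaves 44.2% of all genes above 0. Around TRPV4, on chromosome 12, 9 of 10 neighbours were above 0, with a median log2 difference of 0.32, where 57.5% of all 12386 genes were above 0 and their median was 0.097. GLTP, a glycolipid transfer protein gene next to it, had the largest difference of the 10 (6266 and 7340 on the siRNA arrays, against 3051 on the scrambled array; log2 difference 1.14 ± 0.22, SE; limma adjusted p = 0.0529). The neighbour on the other side, FAM222A, read 163.6 and 254.1, against 192.9. Around TRPM1, on chromosome 15, 8 of 10 were above 0, with a median of 0.39 and values from -0.46 to 1.17. Limma called 0 of these 20 neighbours, where 2.64% of all genes were called. The neighbours of TRPC1 on chromosome 3 and of TRPM8 on chromosome 2 were mostly below 0, with 9 of 10 each and medians of -0.44 and -0.43, where 42.5% of all genes were. Those of TRPM7 (6 above and 4 below 0), TRPM2 and TRPV2 (4 above and 6 below 0 each) were split, with medians of 0.046, -0.044 and -0.092, so the 7 neighbourhoods examined had no common direction.

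Among the other 17 TRP genes TRPA1 rose. This channel, which irritants such as mustard oil open, read 1074 and 1495 on the siRNA arrays, against 175.0 on the scrambled array, a log2 difference of 2.56 ± 0.33 (SE; limma adjusted p = 0.0228). Its second probe set read 150.0 and 170.3, against 115.8, and was too dim for the test. The TRPA1 call was lost without the filter (limma adjusted p = 0.119) and without the trend of the spread on signal (0.125). Of the 17 genes, 16 had a probe set and 7 passed the filter. Limma called 1 of the 7 higher and 0 lower, and 2 had an unadjusted p under 0.05, where 1.5% of all genes were called higher and 1.14% lower and 22.9% had such a p. The median of the 7 was 0.45, against 0.097 over all genes.

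MCOLN1, MCOLN2 and MCOLN3 encode mucolipins, channels of lysosomes and endosomes. MCOLN1 read 881.7 and 900.5 on the siRNA arrays, against 464.8 on the scrambled array (log2 difference 0.87 ± 0.29, SE; limma adjusted p = 0.155). MCOLN2 read 1743 and 2280, against 1442 (limma adjusted p = 0.407). MCOLN3 had its brightest probe set at 6193 and 7205, against 8741 (limma adjusted p = 0.366), whereas a dimmer one read 1006 and 1357, against 685.2, so that its probe sets differed in sign. None of the mucolipins passed the threshold.

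The calcium-selective channel TRPV5 (196.0 and 266.3 on the siRNA arrays, against 140.0 on the scrambled array; limma adjusted p = 0.530) and PKD2L1, a relative of polycystin-2 found in sour taste cells (189.3 and 234.2, against 154.1; limma adjusted p = 0.706), did not pass. TRPM3, host of MIR204, read 186.8 and 418.9, against 202.8 (limma adjusted p = 0.714). A second TRPM3 probe set past the filter read 160.6 and 219.7, against 166.7 (log2 difference 0.14). The TRPM3 probe set with the largest difference (1.82) read 148.2 and 428.6, against 39.0, and was left out by the filter. Its scrambled signal lay below the brightest bacterial control. In all of these the higher siRNA value was on siRNA array 2. The other TRPM3 probe sets were left out as well, with log2 differences of 0.0080 to 1.29.

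**Figure D3:**
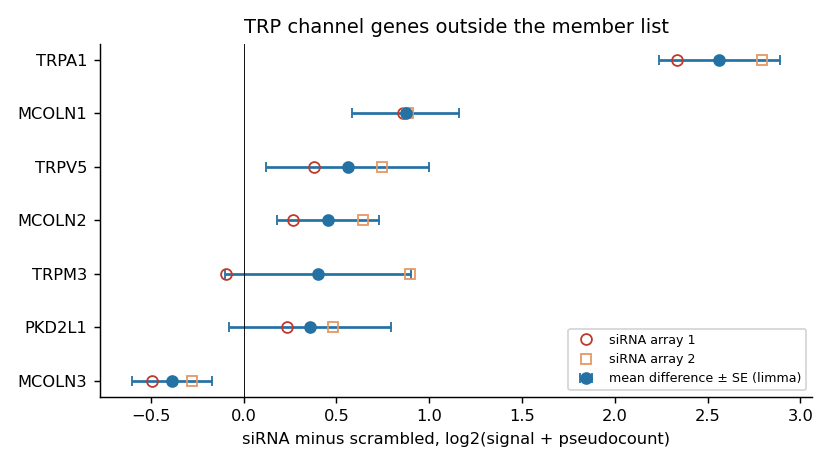
Log2 differences of the 7 TRP genes outside the 10 that passed the filter, each by its brightest probe set, as the mean ± SE from limma (filled circle) and on each siRNA array (open symbols). TRPA1 lies at 2.56 and the others lie between -0.39 and 0.87.

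Genes that work with TRP channels were examined in 9 lists, of which 83 genes passed the filter. Limma called 1 of the 83 higher and 2 lower, where 1.5% of all genes were called higher and 1.14% lower, so the lists held calls at about the share of all genes. An unadjusted p under 0.05 was found for 27 of the 83, where 22.9% of all genes had one, and the list counts at that p are to be read against this share. PLCB4, a phospholipase C that acts downstream of G proteins, rose to 2600 and 2862 in siRNA cells, against 1022 in scrambled cells (log2 difference 1.38 ± 0.25, SE; limma adjusted p = 0.0442). A second PLCB4 probe set rose as well, by 1.59 (limma adjusted p = 0.0493). HOMER1, a scaffold that links TRPC channels to IP3 receptors, fell to 2805 and 2259 in siRNA cells, against 7843 in scrambled cells (-1.62 ± 0.24, SE; limma adjusted p = 0.0291). A second HOMER1 probe set differed by the same -1.62 (limma adjusted p = 0.0621). RCAN1, an inhibitor of calcineurin that calcium signalling induces, fell to 26000 and 22798 in siRNA cells, against 50493 in scrambled cells (-1.05 ± 0.18, SE; limma adjusted p = 0.0383), and a second probe set fell by 1.73 on the log2 scale (limma adjusted p = 0.0465). Each of the 3 genes lost its call under another filter (none, or the stricter 75th percentile) and when the trend was dropped.

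Store-operated entry and IP3 receptor genes were above 0 in 11 of 11 cases, or 7 of 11 with arrays centred, where 57.5% of all genes were above 0, or 44.2% with arrays centred. Their median was 0.39, against 0.097 over all genes, or 0.23 with arrays centred, against -0.073. Limma called 0 of them, and 2 had an unadjusted p under 0.05. ORAI1, the pore of store-operated entry, read 2032 and 2441 on the siRNA arrays, against 1052 on the scrambled array (log2 difference 1.05 ± 0.26, SE; limma adjusted p = 0.0876). ITPR3, an IP3 receptor of the endoplasmic reticulum, read 2177 and 2840, against 1486 (limma adjusted p = 0.195). STIM1, the store sensor, read 657.7 and 1177, against 859.8, with the siRNA arrays on either side of the scrambled array.

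Calcium pumps, exchangers and mitochondrial uptake genes (11 past the filter) had a median of 0.62, or 0.45 with arrays centred, against 0.097 and -0.073 over all genes. Limma called 0 of them, and 7 had an unadjusted p under 0.05. SLC8B1, a mitochondrial sodium-calcium exchanger, read 299.7 and 303.0 on the siRNA arrays, against 46.0 on the scrambled array (limma adjusted p = 0.0755). That scrambled signal lay below the brightest bacterial control, so the difference has only a lower limit (3.10-fold). SLC8A1, the plasma membrane exchanger, had its brightest probe set at 289.5 and 337.5, against 131.1 (log2 difference 1.01; limma adjusted p = 0.219). Another SLC8A1 probe set went the other way on both siRNA arrays (154.9 and 163.9, against 271.7; -0.63), and the mean over probe sets was 0.24.

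Of the voltage-gated calcium channel genes, 7 passed the filter with a median of -0.12. Limma called 0, and 1 had an unadjusted p under 0.05. That was CACNB3, an auxiliary subunit, at 654.7 and 850.9 on the siRNA arrays, against 227.2 on the scrambled array (limma adjusted p = 0.0673). CACNA1C, a pore subunit, read 264.8 and 311.6, against 189.1 (limma adjusted p = 0.531). Among 5 mechanosensitive or related genes (median 0.53, 0 called by limma, 2 at an unadjusted p under 0.05) TMC6 read 2007 and 1508, against 625.7 (limma adjusted p = 0.0600), and the osmosensitive channel gene TMEM63A read 566.7 and 475.2, against 170.5 (limma adjusted p = 0.0921). A dimmer TMEM63A probe set read 166.1 and 166.7, against 197.8.

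Phospholipase C genes (9) had a median of 0.33, with PLCB4 the 1 gene called and 3 at an unadjusted p under 0.05. The 12 partners and regulators also had a median of 0.33, with HOMER1 the 1 gene called and 5 at an unadjusted p under 0.05. The calcineurin, NFAT and calmodulin kinase genes (15) had a median of 0.21, with RCAN1 the 1 gene called and 4 at an unadjusted p under 0.05.

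Magnesium transport genes (11) had a median of 0.14, 0 called by limma and 3 at an unadjusted p under 0.05. SLC41A2, a magnesium transporter, read 567.8 and 631.3 on the siRNA arrays, against 225.1 on the scrambled array (limma adjusted p = 0.0993), and NIPA1 read 2127 and 1970, against 1297 (limma adjusted p = 0.213). The polycystin-1 family had 2 genes past the filter and a median of -0.33. Limma called 0 of the 2, and 0 had an unadjusted p under 0.05. PKD1, the partner of polycystin-2, read 548.0 and 436.3, against 654.3 (limma adjusted p = 0.556), and PKD1L2 read 321.4 and 452.2, against 471.5 (limma adjusted p = 0.732). Another PKD1L2 probe set was higher on both siRNA arrays (328.4 and 464.0, against 272.0). With the mean over probe sets the differences of both genes were above 0, at 0.060 for PKD1 and 0.30 for PKD1L2.

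**Figure D4:**
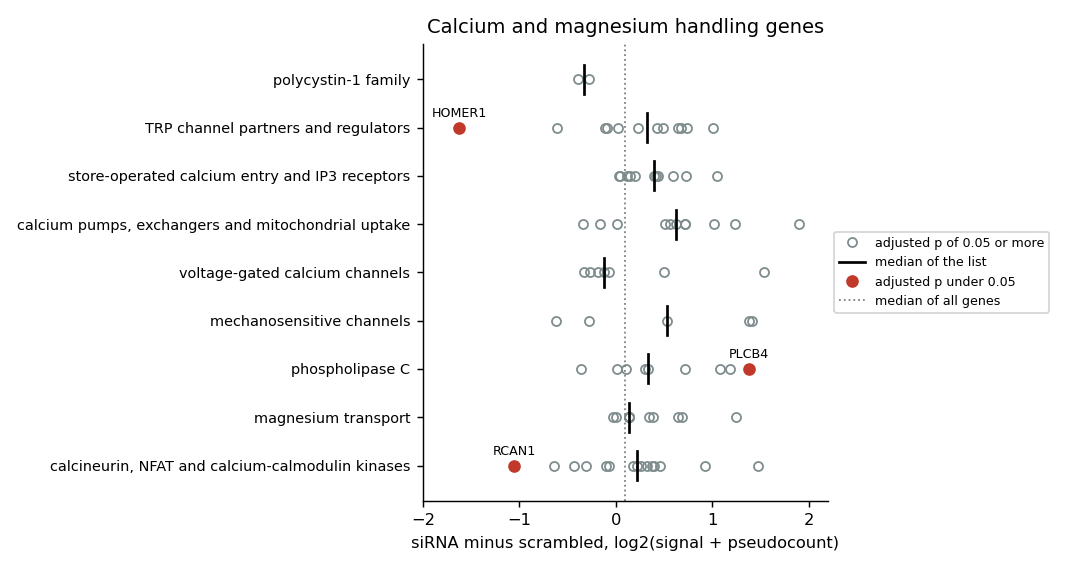
Log2 differences of the genes of the 9 lists past the filter, each by its brightest probe set, with filled circles for an adjusted p under 0.05 by limma and open circles for the others. Black bars are list medians and the dotted line is the median of all genes, 0.097. HOMER1 and RCAN1 lie on the left and PLCB4 on the right.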

How the data were processed

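The deposited values were probe set intensities on a linear scale, which the authors made with GCOS 1.3, per the submitters' processing notes. Which settings were used is not stated by them. The mean after trimming 2% of values at each end was 999.88, 999.87 and 999.86 on siRNA array 1, siRNA array 2 and the scrambled array, so the arrays had a common scale. Of 54675 probe sets 62 controls were left out, and 41091 of the rest had 1 gene in the platform annotation, 1801 several and 11721 none. Columns of other samples numbered 0.

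Signals were taken to log2(signal + 47.4), where 47.4 is their 25th percentile. Probe sets with a mean above the median (7.74) were kept. limma 3.58.1 in R 4.3.3 (lmFit, eBayes with trend) gave two-sided p-values, adjusted by Benjamini-Hochberg over 27306 probe sets, with a threshold of 0.05. There is 1 residual degree of freedom, and the moderation adds 6.36. The scrambled array was assumed to vary like the siRNA arrays. The script was tested on simulated data. A gene is represented by its brightest probe set. The number of arrays limits the precision, and no detection calls were used.

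The members, gene lists and tests were chosen with earlier results of these data known. The text names every member probe set, every other TRP gene past the filter with probe sets that disagree, and of each list up to 4 called genes or, with none called, the 2 with the largest smaller difference over both siRNA arrays. It also names MELTF, melanocyte markers and the 3 genes most like TRPV4 and TRPM1. STIM1, FAM222A, GLTP and the markers of other cell types were picked after their values were seen. So were the second probe sets of called genes and the further probe sets of TRPM3, TRPA1, SLC8A1, TMEM63A, PKD1L2, CACNA1C and ITPR3. Other settings tried were pseudocounts of 16 and of the median, other filters, centring, quantile normalization, no trend, the mean over probe sets and each siRNA array alone. The bacterial control level was set after the data were seen.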

Additional observations from a re-analysis of the deposited data

Results flagged for a closer look

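The control probe sets for ribosomal RNA enter no comparison. Their signal on siRNA array 1 was 4.01 times the one on the scrambled array in the median, above the level in the control cells.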

How the results depend on the processing

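The TRP member probe sets at least 2-fold higher on both siRNA arrays numbered 4 as reported, all of TRPV4 and TRPM1. Under the other pseudocounts and scalings they numbered 4 or 5. The count was 5 at a pseudocount of 16, where the dimmest TRPM7 probe set was added. That probe set lay below the brightest bacterial control on every array. With either siRNA array left out, 5 to 6 member probe sets were past 2-fold on the array that remained, and 0 were lower throughout. Counts of limma calls were less stable. Probe sets called higher and lower numbered 324 and 247 as reported. They numbered 204 and 202 with the median as pseudocount, 1 and 0 without a filter, 6 and 3 under the stricter 75th percentile filter, 594 and 934 with arrays centred, 203 and 157 with quantile normalization, and 1 and 0 without the trend. TRPA1, the 1 other TRP gene called, gave 0 calls without the filter (adjusted p = 0.119), with the 75th percentile filter, which it did not pass, and without the trend (adjusted p = 0.125). It was called in the other 5 alternatives, with adjusted p between 0.000383 and 0.0450. In the 9 lists, 1 gene was called higher and 2 lower as reported. Calls higher were 0 with the median as pseudocount and with quantile normalization, and 4 with arrays centred. Both directions gave 0 without a filter, with the 75th percentile filter and without the trend, and 2 higher and 1 lower with the mean over probe sets. Over 8 alternatives HOMER1 lost its call in 3, RCAN1 in 4 and PLCB4 in 5. The mean over probe sets moved the uncalled differences of CACNA1C to 0.0093 and of ITPR3 to 0.16. Probe sets left out by the filter entered these means. They were at -0.59, -0.39 and 0.52 for CACNA1C and at -0.81 and 0.16 for ITPR3. With 1 siRNA array left out no test was possible, since no residual degree of freedom remains. No paired analysis was possible because the single scrambled array has no partner numbers. Signals near the bacterial control level limit what can be said of TRPM4 and of the dim TRPM1 and TRPM7 probe sets. On the scrambled array SLC8B1 (46.0), NSG1 (34.5), ZNF468 (42.1) and a TRPM7 probe set past the filter (94.4) also lay below that level of 97.2. Their differences thus have only a lower limit, as has that of TRPV4.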
